A study of Mus musculus with 8 samples.

Results

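The genes Kit, Stra8, Sohlh1 and Neurog3 were examined in 8 lists of chromatin immunoprecipitation sequencing peaks from cultured mouse germline stem cells. The members are all peaks that overlap 4 fixed intervals around these genes, given here in the positions of the peak lists, which follow the chromosome lengths of mouse build mm9. The intervals are chr5:75950000-76065000 for Kit (115 kb), chr6:34855000-34900000 for Stra8 (45 kb), chr2:25685000-25715000 for Sohlh1 (30 kb) and chr10:61585000-61605000 for Neurog3 (20 kb). They held 54 of the 233295 listed peaks, 43 of them for H3K4me3 and 11 for H3K27me3. Merging peaks of the 4 libraries of a mark that shared at least 1 bp gave 15 H3K4me3 regions of 54585 and 4 H3K27me3 regions of 26634. Gene starts, exons and introns were not placed in the build of the peaks, so a peak named by a gene below lies in that gene's interval and may belong to a neighbour.

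The cells came from testes of Green mice, a strain with an actin-promoter EGFP transgene, labelled C57BL/6 Tg14(act-EGFP)OsbY01, of DBA/2 background and otherwise wild type. All cultures received FGF2, GDNF and fetal bovine serum, and they were kept for about 5 months (5M) or 60 months (60M). Each age has 2 libraries for H3K4me3 and 2 for H3K27me3. Whether the 2 libraries represent separate cultures is not labelled, and p-values then measure only the spread between these libraries, which may be technical. The labelled cell type was not checked against marker genes here. List length ran from 41637 to 47415 peaks for H3K4me3 and from 12002 to 14940 for H3K27me3. Depth is unknown, since the lists give no read totals. The 2 libraries of a mark and age had at most 86 entries with the same borders and signal and were counted as separate samples.

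Germline stem cells are the cultured form of undifferentiated spermatogonia, and GDNF and FGF2 maintain their self-renewal. In the testis, retinoic acid pushes undifferentiated spermatogonia into differentiation, and the 4 genes mark steps on that path. Neurog3 encodes a basic helix-loop-helix factor of progenitors that are still undifferentiated but primed to differentiate, and it also drives endocrine cell formation in the pancreas. Sohlh1 encodes a germ cell helix-loop-helix factor needed for spermatogonial differentiation. Kit encodes the receptor tyrosine kinase for stem cell factor and marks differentiating spermatogonia. Stra8 is induced by retinoic acid and is required for entry into meiosis. H3K4me3 is found at active and poised promoters, and H3K27me3, the mark of Polycomb repressive complex 2, at silenced ones. Promoters that carry both are called bivalent and are typical of developmental regulators rich in CpG dinucleotides. Protein and RNA were not measured here, and a mark is no measure of expression.

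The promoters of the 4 genes are shown because CpG content is a feature by which they differ and to which both marks are known to relate. Each line gives the 250 bases before the annotated start, from RefSeq on build GRCm38.p6, 5′ to 3′ on the gene's strand, with every CG dinucleotide in capitals. These positions belong to another build than the peaks, so no peak was placed on these bases. Kit has 2 promoter records, and the first was used.
Kit, chr5:75574737-75574986, plus strand: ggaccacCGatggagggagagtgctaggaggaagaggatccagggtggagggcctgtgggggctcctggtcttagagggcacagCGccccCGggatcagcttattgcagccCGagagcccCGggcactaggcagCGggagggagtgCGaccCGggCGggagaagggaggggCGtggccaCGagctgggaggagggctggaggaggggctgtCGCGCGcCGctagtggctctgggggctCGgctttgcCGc
Stra8, chr6:34920698-34920947, plus strand: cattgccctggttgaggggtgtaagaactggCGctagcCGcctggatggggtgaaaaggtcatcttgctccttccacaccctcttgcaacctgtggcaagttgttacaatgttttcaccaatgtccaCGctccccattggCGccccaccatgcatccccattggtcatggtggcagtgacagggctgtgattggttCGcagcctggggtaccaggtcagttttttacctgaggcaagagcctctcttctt
Sohlh1, chr2:25847249-25847498, minus strand: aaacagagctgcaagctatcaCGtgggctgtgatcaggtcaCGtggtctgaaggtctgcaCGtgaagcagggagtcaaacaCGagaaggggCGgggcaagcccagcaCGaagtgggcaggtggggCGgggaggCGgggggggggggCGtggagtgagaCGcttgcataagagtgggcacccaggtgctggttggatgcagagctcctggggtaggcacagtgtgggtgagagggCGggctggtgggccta
Neurog3, chr10:62132840-62133089, plus strand: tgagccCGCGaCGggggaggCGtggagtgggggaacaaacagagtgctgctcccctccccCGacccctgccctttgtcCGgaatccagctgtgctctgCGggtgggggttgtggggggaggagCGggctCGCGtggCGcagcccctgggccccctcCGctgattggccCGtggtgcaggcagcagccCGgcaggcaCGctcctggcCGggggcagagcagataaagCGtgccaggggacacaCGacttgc
The CpG count was 18 for Neurog3, 17 for Kit, 11 for Sohlh1 and 5 for Stra8, against a median of 6 over 32841 promoter records of the same length. As many CpGs or more were found in 21.7% of those records for Neurog3, 23.5% for Kit, 35.6% for Sohlh1 and 55.6% for Stra8. Motifs were searched on both strands. CACGTG was the only form of the E-box, the core sequence bound by helix-loop-helix factors, that was searched. It occurred 3 times for Sohlh1 and in none of the other 3. Of all records, 6.02% held it at least 1 time and 0.0609% at least 3 times. The core AGGTCA, bound by nuclear receptors such as those for retinoic acid, occurred 2 times for Stra8 and 1 time for Sohlh1, where it overlaps an E-box by 2 bases. It was found at least 1 time in 14% of all records and at least 2 times in 1.36%. The 2 matches for Stra8 do not lie next to each other, and binding to any of these motifs was not measured. The GC box GGGCGG occurred 3 times for Sohlh1 and 1 time for Kit. At least 1 was held by 32.7% of all records and at least 3 by 8.47%.

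All 4 intervals carried H3K4me3 in every library, and only those of Kit and Neurog3 carried H3K27me3. Of the 15 H3K4me3 regions, 8 were listed in all 4 libraries, where 64.5% of all H3K4me3 regions were. Kit and Stra8 had 3 such regions each, and Sohlh1 and Neurog3 had 1 each. A further 5 were listed in 1 library, 3 of them in the Stra8 interval, where 11.7% of all regions were. The remaining 2, both at Kit, were listed at 1 age only. H3K27me3 was listed at Kit in 3 of the 4 libraries and at Neurog3 in 3 of the 4, and in no library at Stra8 or Sohlh1. Where a list has no peak, the mark may still be present below the calling threshold.

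**Figure D1:**
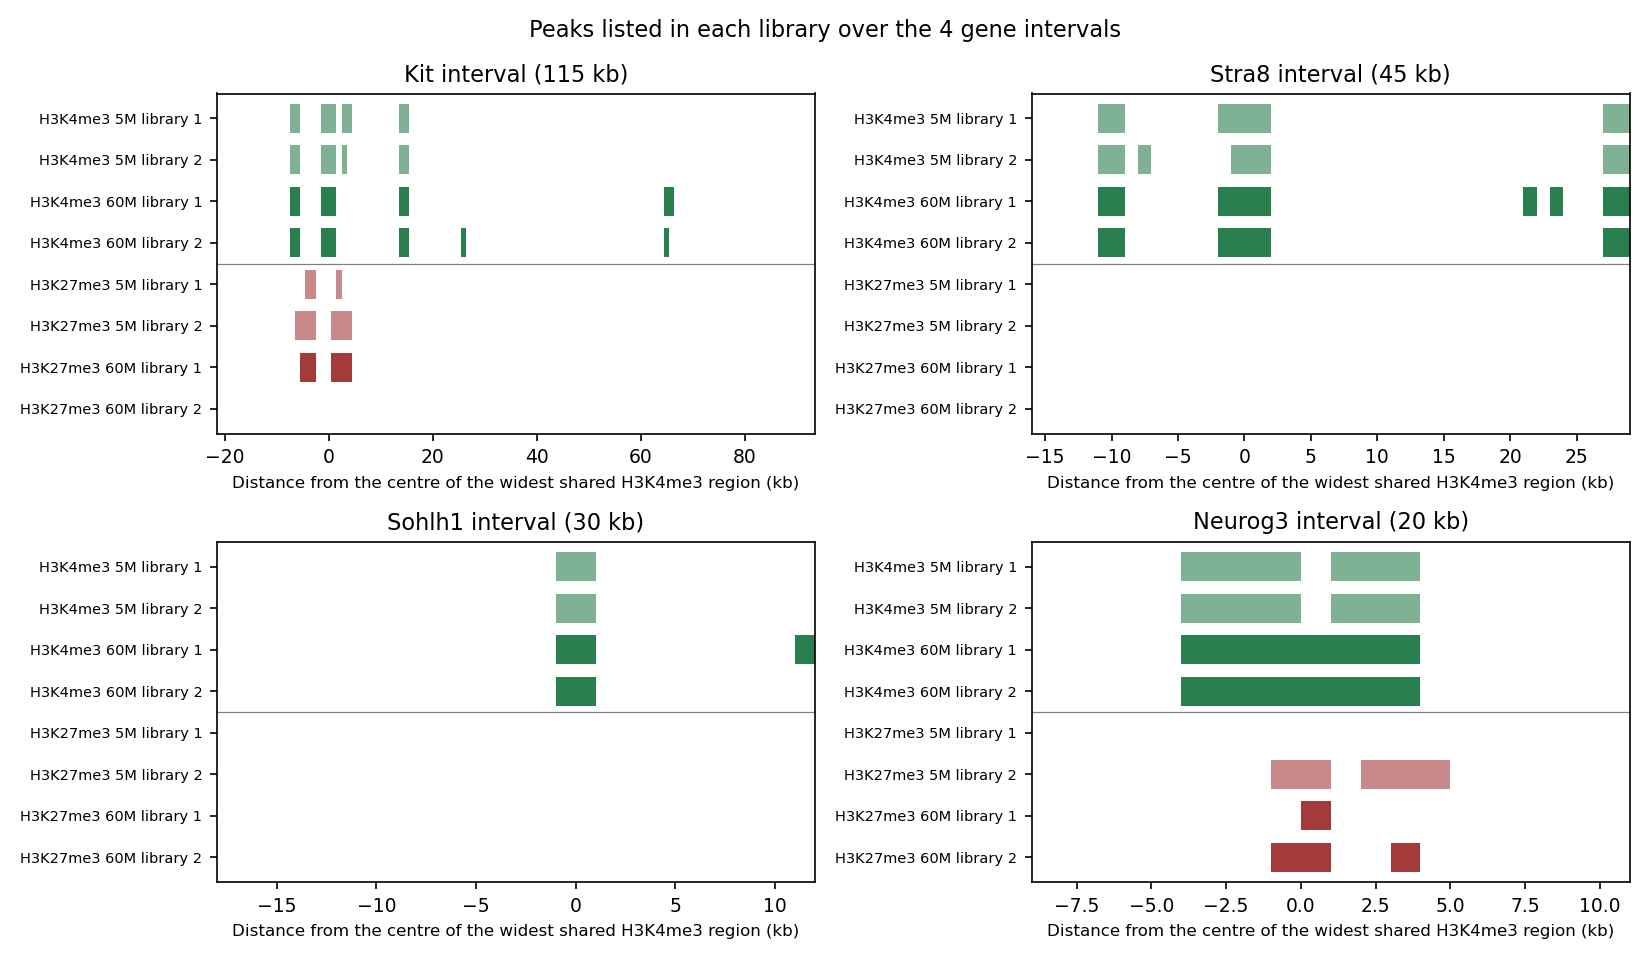
Peaks of each library in the 4 intervals. The x axis is the distance in kb from the centre of the widest H3K4me3 region listed in all 4 libraries; green bars are H3K4me3 peaks and red bars H3K27me3 peaks, paler at 5M. H3K4me3 bars appear in every library at each gene, while H3K27me3 bars appear in 3 of 4 libraries at Kit and Neurog3 and in none at Stra8 and Sohlh1.

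At Neurog3, the primed progenitor factor, the H3K4me3 peaks were joined at 60M. Both 5M libraries listed a 4 kb peak (chr10:61590000-61593999) and a 3 kb peak (chr10:61595000-61597999) with an unlisted bin of 1 kb between them. Both 60M libraries listed a single 8 kb peak over the same stretch. The covered length was thus 7 kb in each 5M library and 8 kb in each 60M library, without overlap of the ages. The two-sided p by exact permutation of the libraries was 0.333. With 2 libraries a side no smaller p exists, so no age difference below could pass a test. Of the 35229 regions shared by all 4 libraries, 7.43% covered more bases in both 60M libraries, and Neurog3 was 1 of the 8 shared member regions to do so. The step from at least 2 peaks in both 5M libraries to 1 in both 60M libraries was made by 0.298% of shared regions and by 1 of these 8. This step restates the pattern seen at Neurog3, so its share does not measure how unusual that pattern is. Regions with 1 peak at 5M could not make the step, and the share among regions split at 5M was not computed. Peaks of 8 kb or more, a limit taken from the same Neurog3 peak, made up 0.174% and 0.213% of the 5M lists and 0.261% and 0.319% of the 60M lists.

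In 3 libraries an H3K27me3 peak of Neurog3 lay over the place where the H3K4me3 peaks met. The region chr10:61593000-61594999 was listed in 5M library 2 (2 kb, maximum signal 53.6), 60M library 1 (1 kb, 38.4) and 60M library 2 (2 kb, 52.7). In each of these 3 libraries the peak included the bin from 61594000 to 61594999 that H3K4me3 left out at 5M. A second region, chr10:61596000-61598999, was listed in 5M library 2 (3 kb, 49.9) and 60M library 2 (1 kb, 43.3). The library without any H3K27me3 peak here was 5M library 1, whose nearest one lay 100 kb from the tallest H3K4me3 peak. At 5M the H3K27me3 length was 0 kb in library 1 and 5 kb in library 2. At 60M it was 1 kb in library 1 and 3 kb in library 2, and the ages overlapped, with means of 2.5 ± 3.54 kb and 2 ± 1.41 kb (SD, n = 2). The maximum signal is the authors' value per peak, in an unstated scaling.

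Kit, the stem cell factor receptor gene, held the strongest H3K4me3 peak of the 4 intervals. The 3 kb peak chr5:75970000-75972999 had the same borders in all 4 libraries and maximum signals of 712.9 and 655.5 at 5M and 678.0 and 674.6 at 60M. Signals were ranked within each list as percentiles, in which 100 is the strongest peak, because the lists may differ in scale. This peak stood at 96.7 and 96.0 at 5M and at 95.9 and 98.8 at 60M, and the ages overlapped. Divided by the median signal of its list, it stood at 3.90 and 3.65 at 5M and at 3.15 and 2.83 at 60M. It was lower at 60M on that scale only, where 62.5% of all shared regions were lower in both 60M libraries. A second shared peak, chr5:75964000-75965999, had signals of 220.8 and 211.2 at 5M and 243.1 and 252.5 at 60M. Its percentile was 56.3 and 55.5 at 5M and 54.3 and 52.2 at 60M. This second peak was lower at 60M in these ranks and higher in the deposited signal. Ranked among shared regions alone, it overlapped between the ages. Of all shared regions, 44.5% were lower by percentile and 42.1% were higher by deposited signal in both 60M libraries.

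The third shared region of Kit was the weakest of the 8 and stood higher at 60M. The peak chr5:75985000-75986999 had signals of 106.5 and 77.1 at 5M and 171.3 and 155.3 at 60M. Both 60M values exceeded both 5M values, as they did in 42.1% of all shared regions by signal and in 21.4% by percentile. Its percentile was 26.9 ± 6.95 at 5M and 38.1 ± 5.31 at 60M (SD, n = 2), a difference of 11.2. A difference at least as high was found in 4.99% of all shared regions.

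Kit was also the only interval of the 4 with H3K4me3 regions listed at 1 age only, 1 in each direction. The region chr5:75974000-75975999, which begins 1 bin after the strongest peak, was listed at 5M only, with signals of 55.2 and 46.7 and percentiles of 11.9 and 7.82. The region chr5:76036000-76037999, centred 65.5 kb after the strongest peak, was listed at 60M only. Its signal was 130.4 in 60M library 1 (2 kb, percentile 32.5) and 56.8 in 60M library 2 (1 kb, percentile 8.55). Thus 1 of the 15 member regions was 5M-only, where 10.1% of all H3K4me3 regions were, and 1 was 60M-only, where 4.46% were. The 5M-only call was lost, and the 60M-only call was not, when lists were shortened to equal length or when the deposited −log10 p against the control had to reach 5. Without 60M library 2 the member regions listed at 60M only numbered 4 in place of 1. The further peak at chr5:75997000-75997999 was listed in 60M library 2 alone (signal 56.1).

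H3K27me3 at Kit lay on both sides of the strongest H3K4me3 peak in 3 libraries, and in 2 of them it also overlapped that peak. On one side lay the region chr5:75965000-75968999, listed with 2 kb in 5M library 1 (signal 46.2), 4 kb in 5M library 2 (40.4) and 3 kb in 60M library 1 (59.9). The other region, chr5:75972000-75975999, was listed with 1 kb in 5M library 1 (39.8), 4 kb in 5M library 2 (63.1) and 4 kb in 60M library 1 (53.5). Its 4 kb peaks shared 1 kb with the strongest H3K4me3 peak, and its 1 kb peak began where that peak ended. In 60M library 2 neither was listed, and the nearest H3K27me3 peak lay 117 kb from the strongest H3K4me3 peak. H3K27me3 thus covered 3 kb in library 1 and 8 kb in library 2 at 5M, and 7 kb in library 1 and none in library 2 at 60M. The means were 5.5 ± 3.54 kb and 3.5 ± 4.95 kb (SD, n = 2), and the libraries of 1 age differed by more than the ages did. Within the lists these peaks ranked from the 28.4th to the 77.1st percentile.

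**Figure D2:**
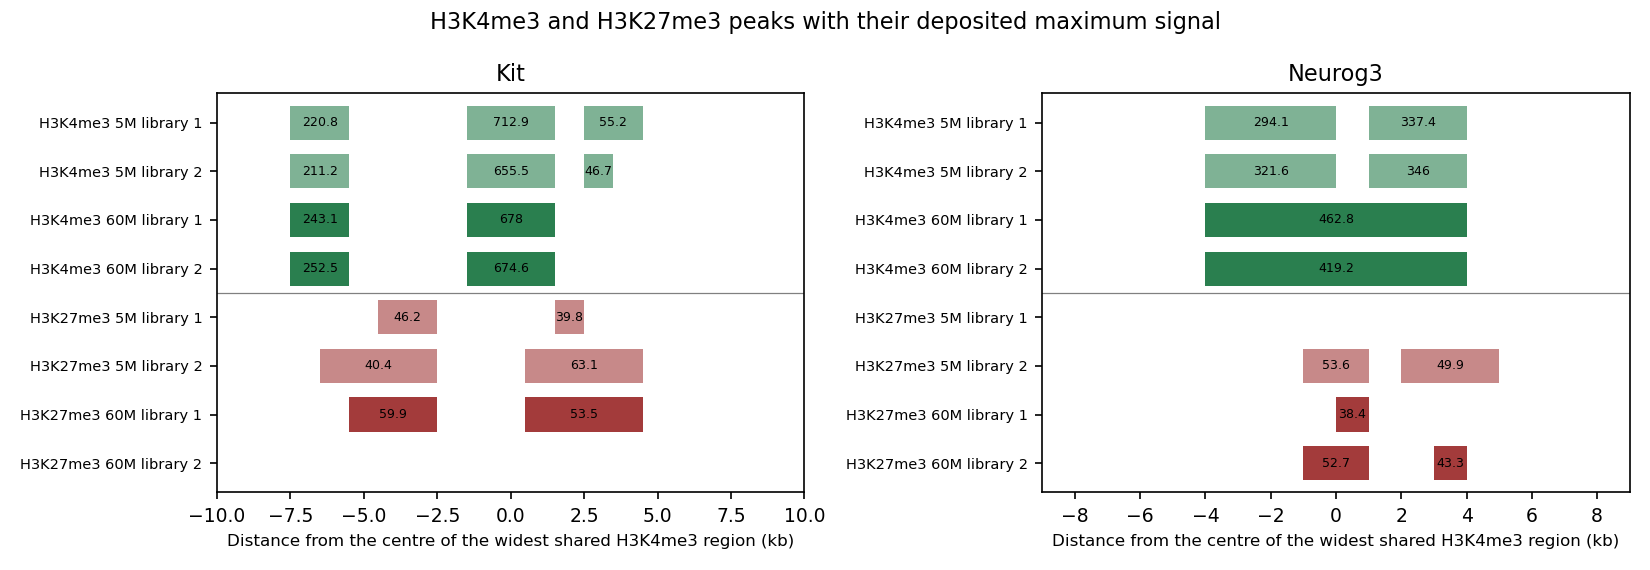
Peaks around the widest shared H3K4me3 region of Kit and Neurog3, with the deposited maximum signal printed on each bar and the distance in kb on the x axis. At Kit the H3K27me3 bars lie on both sides of the peak of 655.5 to 712.9 and reach into it by 1 kb in 5M library 2 and 60M library 1. At Neurog3 an H3K27me3 bar in 3 libraries covers the gap between the H3K4me3 peaks of the 5M libraries, which is closed at 60M.

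None of the 4 H3K27me3 regions was listed at 1 age only, and none was listed in all 4 libraries. Over all H3K27me3 regions, 6.02% were 5M-only, 4.39% were 60M-only and 18.6% were in all 4 libraries. All 4 member regions were among the 16.1% listed in 2 or 3 libraries without following age. No test was made on these counts. The libraries that lacked the mark, 5M library 1 at Neurog3 and 60M library 2 at Kit, have the shortest lists of their age, with 12002 and 13037 peaks. At Kit, however, the list of 12002 peaks held 2 peaks and the list of 13037 held 0. A link to list length was not tested. All 11 H3K27me3 peaks at the 4 genes stayed when every list was shortened to 12002 peaks. Shortening only removes listed peaks, so it cannot show why a list lacks one. Of the 11, 6 had a −log10 p against the control of at least 5.

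Overlap of the marks followed the same libraries. Of the 15 H3K4me3 regions, 4 were overlapped by an H3K27me3 peak of at least 1 library, 3 at Kit and the 1 at Neurog3, where 12.2% of all H3K4me3 regions were. Within 5 kb of an H3K27me3 peak lay 5 of the 15, where 26.2% of all regions did. The fifth was the Stra8 region chr6:34898000-34899999, near a peak listed in 60M library 1 alone. Both marks in both libraries of an age were called at 0 of the 15 at 5M, where 5.86% of all regions were called, and at 1 of the 15, Neurog3, at 60M, where 3.94% were. The Neurog3 call at 60M was lost when −log10 p had to reach 5 and when the marks had to cover at least 50% of the region. Without the H3K27me3 list of 5M library 1, so that 1 list sufficed, 4 of the 15 regions carried both marks at 5M, where 8.71% of all regions did. Kit was not called at either age, because the narrow H3K27me3 peaks of 5M library 1 stopped short of its H3K4me3 peaks and 60M library 2 listed none.

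Stra8, the meiotic gatekeeper gene, had 3 H3K4me3 regions listed in all libraries. In the deposited signal the widest, chr6:34869000-34872999, reached 422.0 and 419.7 at 5M and 456.4 and 420.9 at 60M. It measured 4 kb except in 5M library 2, where it measured 3 kb. Its percentile of 76.1 and 77.6 at 5M and 77.4 and 74.5 at 60M overlapped between the ages. Ranked among shared regions it was higher at 60M (69.4 ± 0.715 and 71.0 ± 1.51), as 30.3% of all shared regions were. Over the list median it was lower (2.32 ± 0.0237 and 1.94 ± 0.250, SD, n = 2), as 62.5% were. The region chr6:34860000-34861999 had signals of 466.9 and 443.9 at 5M and 440.7 and 395.2 at 60M. Its percentile was lower in both 60M libraries, at 79.4 ± 0.171 and 73.7 ± 3.31 (SD, n = 2), and 21.4% of all shared regions were lower by as much or more. The region chr6:34898000-34899999 ranked at 54.6 and 54.3 at 5M and 55.0 and 54.3 at 60M. Its deposited signal was 209.7 and 203.8 against 247.7 and 265.3, so the scale decides whether the ages overlap. By deposited signal, 42.1% of all shared regions were higher in both 60M libraries. In the RefSeq table of GRCm38.p6, Wdr91 precedes Stra8 and Slc23a4 follows it, and which of the 3 regions belongs to which gene was not assigned.

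The other Stra8 peaks were weak and each was listed in 1 library. They were chr6:34863000-34863999 in 5M library 2 (signal 71.2) and chr6:34892000-34892999 and chr6:34894000-34894999 in 60M library 1 (67.9 and 68.7). Their percentiles ran from 14.0 to 19.5. Peaks covered 8 kb at Stra8 in every library except 60M library 1, where they covered 10 kb. The tallest H3K4me3 peak was chr6:34860000-34861999 in both 5M libraries and chr6:34869000-34872999 in both 60M libraries. From it the nearest H3K27me3 peak lay 80 and 84 kb away at 5M and 31 and 69 kb away at 60M. These distances start from different peaks and do not compare the ages.

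Sohlh1, the germ cell differentiation factor, had 1 shared H3K4me3 region, and it stood lower at 60M. The 2 kb peak chr2:25702000-25703999 had the same borders in all libraries, with signals of 327.0 and 299.3 at 5M and 259.2 and 248.9 at 60M. The ages did not overlap, and 16% of all shared regions were likewise lower in deposited signal in both 60M libraries. Its percentile was 67.8 ± 0.985 at 5M and 54.1 ± 3.55 at 60M (SD, n = 2), a difference of -13.7, and 5.25% of all shared regions were lower by as much or more. The direction was the same on the 4 scales tried (percentile in the list, percentile among shared regions, signal over the list median and deposited signal). These scales derive from the same signals, so their agreement is partly built in. A second peak, chr2:25714000-25714999, was listed in 60M library 1 alone (signal 59.4). The nearest H3K27me3 peak lay 62 to 70 kb from the H3K4me3 peak in 3 libraries and 17 kb away in 60M library 2.

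Set side by side, the shared regions of the 4 genes differed in both directions. In rank, Neurog3 stood at 70.5 ± 1.48 at 5M and 76.2 ± 2.67 at 60M (SD, n = 2), from highest signals of 337.4 and 346.0 at 5M and 462.8 and 419.2 at 60M. As with Sohlh1, the ages did not overlap, but in the other direction, and 12.6% of all shared regions were higher by as much or more. The 5M values are those of the 3 kb peak, with its summit at 61595500, and the 4 kb peak beside it reached 294.1 and 321.6. The 8 kb peak of both 60M libraries had its summit at 61590500, as the 4 kb peak had at 5M. The ranks of the 2 ages thus compare maxima at different places. At 5M the percentiles were 69.5 and 71.6 for Neurog3 and 68.5 and 67.1 for Sohlh1. At 60M they were 78.1 and 74.3 for Neurog3 and 56.6 and 51.6 for Sohlh1; the difference between the genes was not tested. In all, 2 of the 8 shared regions ranked higher in both 60M libraries, Neurog3 and the weakest of Kit, where 21.4% of all shared regions did. Another 3 ranked lower (Sohlh1, the Stra8 region at 34860000 and the Kit region at 75964000), where 44.5% did. The median difference was -0.34 percentile points over the 8 and -1.52 over all shared regions. The counts followed the scale, and so did those of all shared regions. With the signal divided by the list median, 1 of the 8 was higher and 5 were lower, against 14.4% and 62.5% of all shared regions. In the deposited signal 4 were higher and 2 were lower, against 42.1% and 16% of all. Ranked among shared regions alone, 4 were higher and 2 were lower, against 30.3% and 32.5% of all. On all 4 scales the weakest Kit region was higher at 60M and Sohlh1 and the Stra8 region at 34860000 were lower. The scales derive from the same signals, and the share of all shared regions with 1 direction on all 4 was not computed. Neurog3 was higher on 3 scales and overlapped between the ages in signal over the list median.

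**Figure D3:**
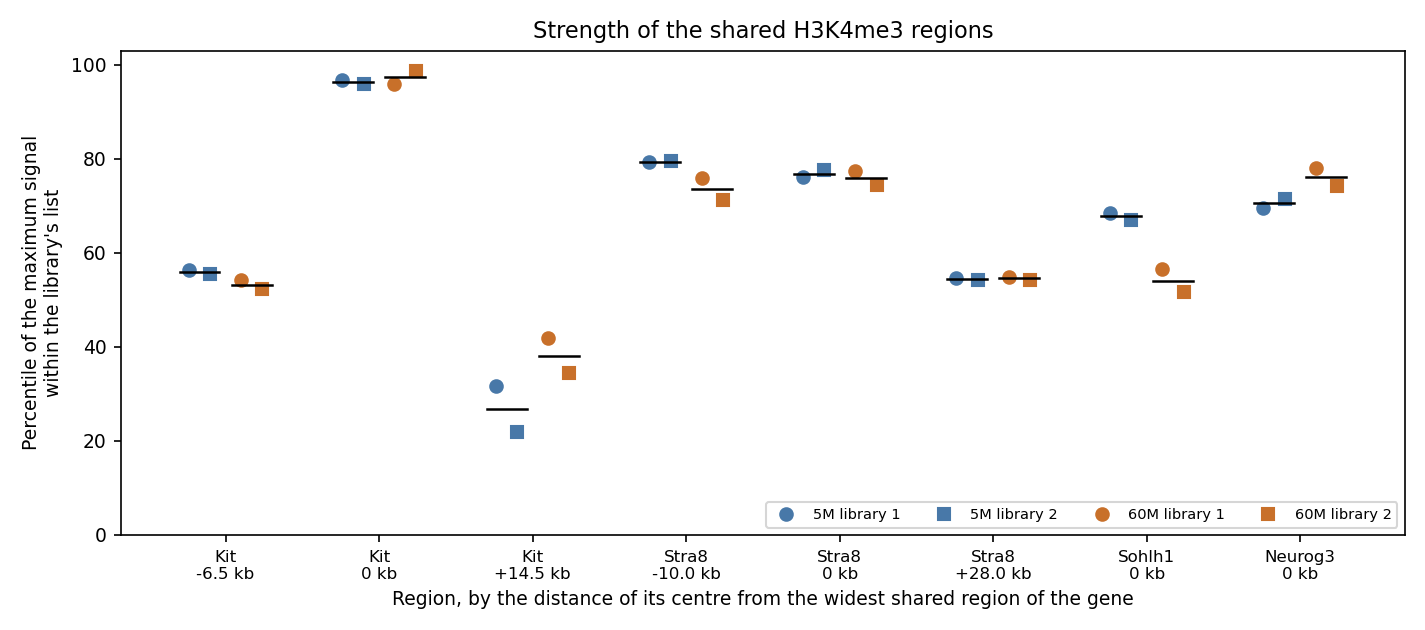
Percentile of the maximum signal within each library's list (y axis) for the 8 H3K4me3 regions listed in all 4 libraries, named by gene and by the distance of the region from the gene's widest one. Circles and squares are libraries 1 and 2, blue at 5M and orange at 60M, and lines are means; the Sohlh1 points lie at 67.1 to 68.5 at 5M and at 51.6 to 56.6 at 60M.

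In covered length, only Neurog3 separated the ages for H3K4me3, and no gene did for H3K27me3. The H3K4me3 length at Kit was 9 and 8 kb at 5M and 9 kb in both 60M libraries. At Sohlh1 it was 2 kb in every library except 60M library 1, where a weak extra peak made it 3 kb. As a share of the interval, H3K4me3 covered 35% of the Neurog3 interval at 5M and 40% at 60M, 17.8 to 22.2% at Stra8, 6.96 to 7.83% at Kit and 6.67 to 10% at Sohlh1. These shares also reflect how far each interval reaches beyond its gene.

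**Figure D4:**
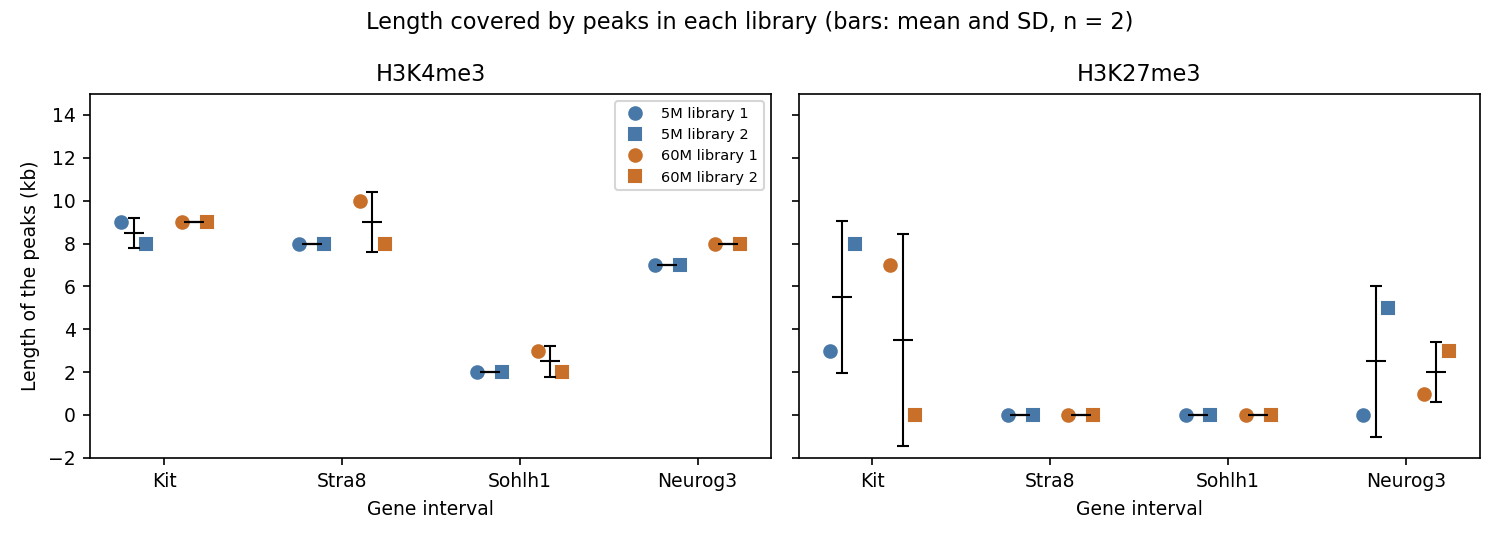
Total length of the peaks in each interval (y axis, kb) for H3K4me3 and H3K27me3. Points are libraries, and black marks are the mean and SD of the 2 libraries of an age; for H3K4me3 at Neurog3 the 60M points (8 kb) lie above the 5M points (7 kb), while the H3K27me3 points of Kit and Neurog3 overlap between ages.

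The nearest H3K4me3 peaks beyond the borders of the intervals lay from 3 kb to 121 kb away. They were 26 kb before the Stra8 interval, 121 kb before the Sohlh1 interval and 20 to 30 kb after the Neurog3 interval. The peak that follows the Sohlh1 interval began 3 kb beyond it and ranked from 71.0 to 76.9, above the Sohlh1 peak in each library. The peak after the Stra8 interval began 5 kb beyond it and ranked at 63.7, 64.2, 63.6 and 40.3 in 5M libraries 1 and 2 and 60M libraries 1 and 2. Before the Neurog3 interval, a peak ended 10 kb from it and ranked from 80.6 to 85.9. Around Kit, the nearest peaks lay 15 kb before the interval, at percentiles of 31.5 to 44.3, and 24 to 25 kb after it, at 8.77 to 23.7.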

How the data were processed

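The authors deposited 1 peak list per library, in bins of 1000 bp. CASAVA 1.8.4, Bowtie 1.1.2 and build mm10 are named in the submitters' processing notes, which name no peak caller. Each deposited peak has a width, a maximum signal, a q-value and −log10 p-values with and without the control. Peaks passed the mm10 chromosome ends 1331 times and the mm9 ends 2 times (lengths from GenomeInfoDb 1.38.1), so positions were read as mm9 and not converted. Genes beyond the 4, planned in case positions in that build were at hand, were not analysed here; promoter sequences of all 4 genes matched the RefSeq table.

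The 4 genes and every region in their intervals were named by rule. Members and lists were chosen with earlier results of these data known. Regions, percentiles, lengths and exact permutation tests were computed with pandas 2.3.3, scipy 1.17.1 and numpy 2.4.6 (Python 3.11.15); matplotlib 3.10.9 drew the figures. The region code was tested on simulated lists. Alternatives changed merging, overlap, the p threshold, list length, interval borders, the strength scale and the libraries used.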

Additional observations from a re-analysis of the deposited data

How the results depend on the processing

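Of 94 alternative values, 72 stayed within the replicate spread or within 1.5 times the count, and 22 moved; no age difference was called by a test. The 2 H3K4me3 regions listed at 1 age only became 1 at a −log10 p of at least 5 and 1 at equal list lengths, and ran from 2 to 5 with 1 library left out, 5 without 60M library 2. For H3K27me3 the count was 0, and it ran from 0 to 2 with a library left out: 1 when 5M library 2 was dropped and 2 when 60M library 1 was. The 1 H3K4me3 region with both marks in both libraries of an age became 0 when the mark had to cover at least 50% of the region, and 0 at a −log10 p of at least 5. It ran from 1 to 4 with a library left out, 4 without the H3K27me3 list of 5M library 1 and 2 without that of 60M library 2. With a library left out, its age rests on the remaining one. The H3K4me3 length at 60M minus 5M was 0.5 kb at Kit, 1 kb at the p threshold, 1 kb at equal lengths and 0 to 1 kb with a library left out. At Stra8 it was 1 kb, or 0 to 2 kb with a library left out. At Sohlh1 it was 0.5 kb, 0 kb in intervals narrowed by 5 kb, and 0 to 1 kb with a library left out. At Neurog3 it was 1 kb in every alternative run. The H3K27me3 length difference changed sign between alternatives at both Kit (-5.5 to 1.5 kb) and Neurog3 (-3 to 2 kb). Of the 8 shared regions, those higher at 60M numbered 2, or 1 by signal over the list median (14.4% of all shared regions), 4 by the percentile among shared regions (30.3%) and 4 by deposited signal (42.1%), the last 2 scales chosen after seeing the data. Those lower numbered 3, or 5 (62.5%), 2 (32.5%) and 2 (16%). With the replicate number as a block the differences were the same (0.5 kb for H3K4me3 at Kit), and 2 pairs allow no exact sign-flip p under 0.5. Same-numbered libraries did not deviate together (correlation 0.0353 for H3K4me3 and -0.0169 for H3K27me3 over regions), so the numbers were not used as pairs. Unknown depth limits what a missing peak can show.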

Other observations

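After the Stra8, Sohlh1 and Neurog3 intervals, a close H3K27me3 peak was listed in single 60M libraries. The nearest outside peak lay at least 75 kb from the Kit interval, and at least 45 kb before each of the other intervals. How often such peaks lie near other genes was not computed. A peak began 4 kb after the Stra8 interval in 60M library 1 (signal 36.6), against 42 to 46 kb in the others. Another began 6 kb after the Sohlh1 interval in 60M library 2 (43.3), against 177 to 180 kb in the others, and 1 began 3 kb after the Neurog3 interval in 60M library 2 (42.1), against 90 to 98 kb. None was listed in the other 60M library, and they ranked from the 19.8th to the 41.2nd percentile of their lists.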
